A study of Xenopus tropicalis with 11 samples.

Results

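Regions that carried Foxh1 at both blastula stages and Foxa at the start of gastrulation, and had no peak of the co-repressor Tle, numbered 1409 of the 88697 regions formed from 6 peak lists of Xenopus tropicalis embryos. The peaks came from chromatin immunoprecipitation followed by sequencing (ChIP-seq). Peaks of all lists that overlapped by at least 1 base were merged into a region. The regions were chosen by these lists, that is by measured peaks. A region was kept when it held peaks of stage 8 Foxh1, stage 9 Foxh1 and stage 10.25 Foxa, and none of stage 8 Tle, gastrula Foxh1 or gastrula Smad2/3. These regions are called stable Foxa regions below, where stable means only that Foxh1 was listed at stages 8 and 9. They made up 8.06% of the 17482 regions with Foxh1 at both blastula stages, and 26.3% of the 5356 such regions that also held Foxa.

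Foxh1 is a forkhead transcription factor that the egg supplies, and it brings Smad2/3, the effectors of Nodal signalling, to DNA in mesoderm and endoderm formation. Foxa proteins are also forkhead factors. They are made by the embryo in the endoderm and the organizer and can bind sites in closed chromatin. Tle belongs to the Groucho family of co-repressors, which do not bind DNA themselves and are held on chromatin by other factors.

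All samples were whole embryos of the Nigerian strain, with no treatment or genetic change in the labels, so a peak does not show which cells carried the factor. The Foxa list is of stage 10.25, at the start of gastrulation, and rests on 1 library with an antibody to Foxa. The Foxh1 lists of stages 9 and 8, both blastula stages, each rest on 2 pooled replicates with a custom antibody. The Tle list is of stage 8 and rests on 1 library of another kit. The gastrula Foxh1 and Smad2/3 lists come from an earlier series, at a stage slightly later than the Foxa sample. With 1 list per factor and stage there is no spread between replicates, and the sequencing depth is unknown. The gastrula Foxh1 list has 1290 peaks, against 28611 and 29935 at stages 8 and 9, so a region without a gastrula peak is not shown to be unbound.

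Stable Foxa regions were compared with 3 classes of regions, all without gastrula Foxh1 and Smad2/3. The 3046 stable Tle-Foxa regions held Foxh1 at both blastula stages with Tle and Foxa. The 4302 late Foxa regions held stage 9 Foxh1 and Foxa, with neither stage 8 Foxh1 nor Tle. The 5092 bare stable regions held Foxh1 at both blastula stages with neither Tle nor Foxa. Among stable regions without Tle, Foxa was listed at 21.7% of 6501, and among those with Tle at 30.4% of 10009. These shares follow from the rule and carry no test.

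Few stable Foxa regions rested on a small overlap, but many held a weak stage 8 peak. The lower quartile of their stage 8 Foxh1 scores was 394, where the list ran from 320 with a median of 558. Of the stable Foxa regions, 97.4% held 1 peak of each of the 3 lists. The overlap of the Foxa peak with the stage 9 Foxh1 peak had a median of 231 bases. It was 1 to 20 bases in 6 regions, and in 7 regions the highest Foxa and stage 9 peaks did not touch and were joined by another peak. The smallest such overlap was 8 bases, found at 2 regions of scaffold 6, 16111792 to 16112177 and 91344919 to 91345377. Just outside the rule, 39 bare stable regions had a Foxa peak within 100 bases and 545 within 1000 bases, the nearest 2 bases away. On the other edge, 11 stable Foxa regions had a Tle peak within 100 bases and 178 within 1000 bases, the nearest being 35 bases away. No stable Foxa region had gastrula Foxh1 or Smad2/3 within 100 bases, and the smallest gaps were 173 and 156 bases, both at a single region (scaffold 9, 58122225 to 58122777). Tle alone kept 3046 regions out of the set, gastrula Foxh1 alone 184, both gastrula lists together 40 and Smad2/3 alone 7. Of these 3046, 158 (5.19%) had a Tle score under 5, where the Tle list ran from 3.01.

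At stage 8, stable Foxa regions had the Foxh1 strength of bare stable regions. The authors' fold enrichment of a peak over its local background, used here to describe peaks, had a median of 15.5 at stable Foxa regions (interquartile range 13.1 to 19.4) and 15.9 at bare stable regions (13.3 to 20.0). It was 15.0 to 26.1 for the middle 50% of stable Tle-Foxa regions, with a median of 19.7. By rank within the stage 8 list, where 100 is the highest score, the medians were 41.9 for stable Foxa, 70.7 for stable Tle-Foxa and 43.7 for bare stable regions. Only 40 stable Foxa regions (2.84%) were in the upper 10% of the stage 8 list, against 619 stable Tle-Foxa regions (20.3%) and 117 bare stable regions (2.30%). The lowest stage 8 score at a stable Foxa region was 321, next to the lowest of the list, 320.

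At stage 9 the same regions stood high in the Foxh1 list. The median fold was 21.1 at stable Foxa regions (interquartile range 15.3 to 28.2), 23.4 at stable Tle-Foxa regions (17.5 to 30.7), 13.9 at late Foxa regions (11.3 to 18.0) and 15.5 at bare stable regions (12.2 to 20.7). The median rank was 75.5 at stable Foxa regions, 83.3 at stable Tle-Foxa, 40.3 at late Foxa and 48.3 at bare stable regions. In the upper 10% of the stage 9 list were 235 stable Foxa regions (16.7%), 979 stable Tle-Foxa regions (32.1%), 51 late Foxa regions (1.19%) and 201 bare stable regions (3.95%). Stable Foxa regions thus had a median stage 8 level close to that of bare stable regions, and a median stage 9 level between those of bare stable and stable Tle-Foxa regions. Their share of the strongest stage 9 peaks was also between those of these classes. The rule used these lists, so the values are a description and carry no test.

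**Figure D1:**
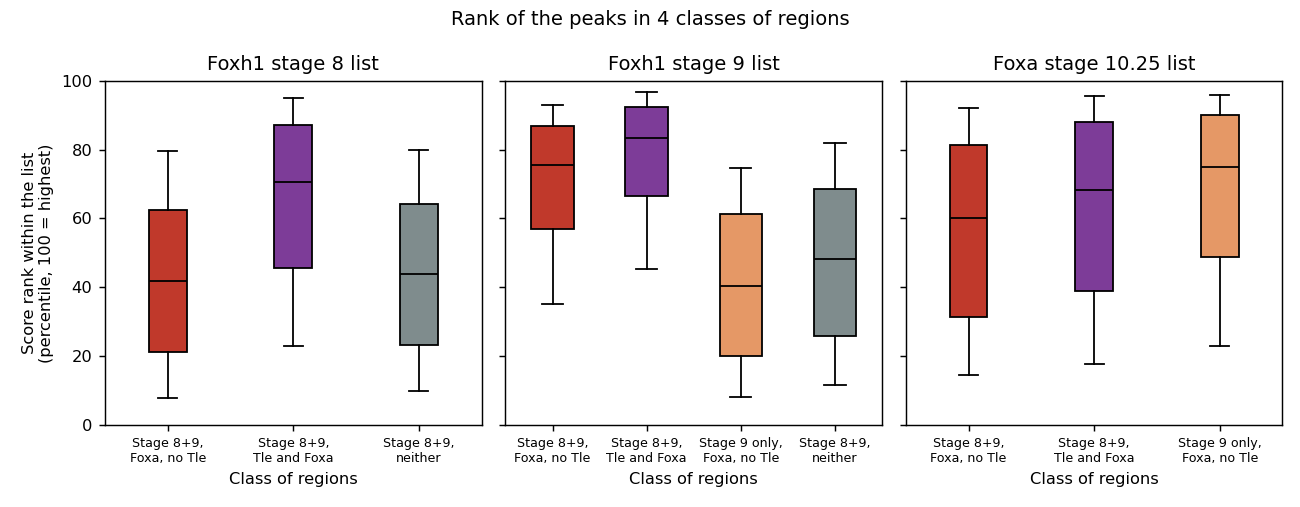
Score rank of the highest peak of each region within its list (percentile, 100 is the highest score), for Foxh1 at stages 8 and 9 and for Foxa. Boxes show the middle 50% of regions with the median, and whiskers run from the 10th to the 90th percentile. Stable Foxa regions (red) have a median rank of 41.9 at stage 8, beside 43.7 for regions with neither partner (grey), and of 75.5 at stage 9, against 48.3.

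The difference between stages was then taken within each region. The stage 9 fold was above the stage 8 fold at 1022 of 1409 stable Foxa regions (72.5%, Wilson 95% interval 70.1 to 74.8%), at 62.2% of stable Tle-Foxa regions and at 46.6% of bare stable regions. The median of log2 (stage 9 fold / stage 8 fold) was 0.36 at stable Foxa regions, 0.19 at stable Tle-Foxa regions and −0.05 at bare stable regions. Over all 17482 regions with both stages it was −0.04. A stage 9 fold of at least 1.5 times the stage 8 fold was found at 504 stable Foxa regions (35.8%, 33.3 to 38.3%), where all regions with both stages gave 17.5%. The reverse, a stage 8 fold of at least 1.5 times the stage 9 fold, was found at 83 (5.89%, 4.78 to 7.24%), against 19.5% of all regions with both stages. At stable Tle-Foxa regions the 2 shares were 26.9% and 11.2%. In the bare stable class the shares were 15.4% and 16.6%, so neither direction dominated there. The scaling between the 2 lists depends on the unknown depths, and its part in these values was not tested. The intervals cover the counting of regions only. The rule used these lists, so the values are a description.

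**Figure D2:**
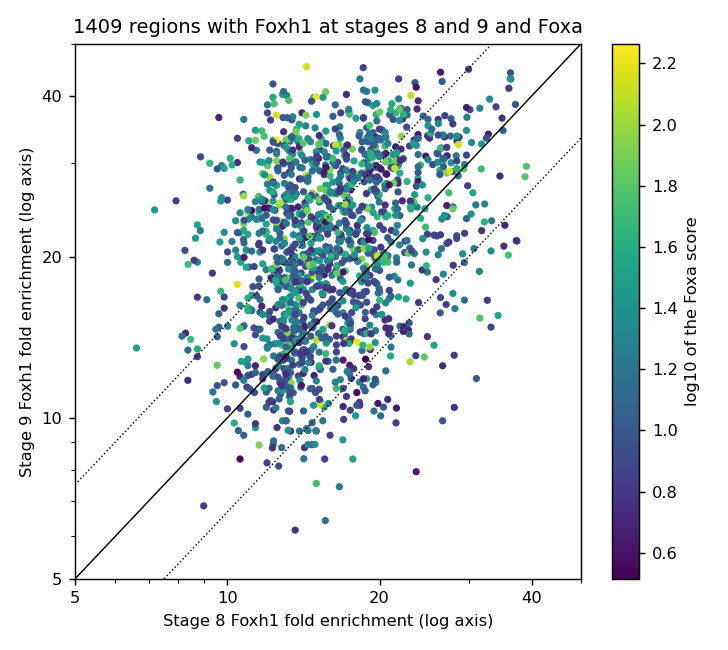
Foxh1 fold enrichment of the 1409 stable Foxa regions at stage 8 (horizontal log axis) and at stage 9 (vertical log axis), 1 point per region, coloured by the log10 of the Foxa score. The solid line marks equal folds and the dotted lines mark a ratio of 1.5. 504 regions lie on or above the upper dotted line and 83 on or below the lower one.

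**Figure D3:**
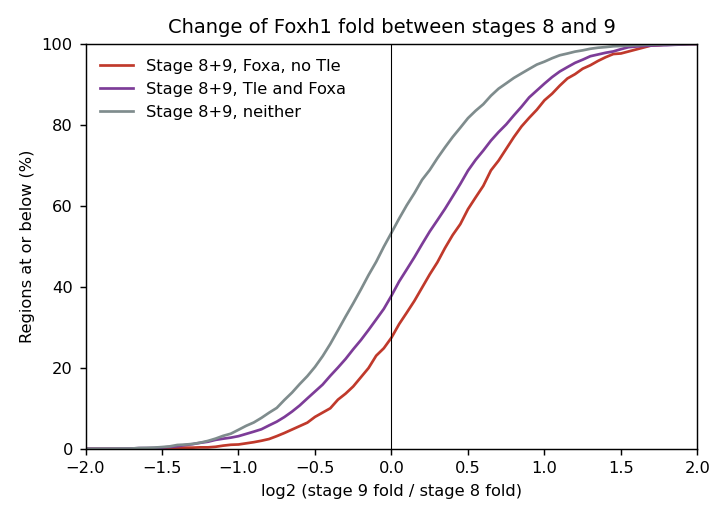
Cumulative share of regions (%) by log2 of the stage 9 fold over the stage 8 fold in 3 classes of stable regions. The curve of stable Foxa regions (red, median 0.36) lies right of that of stable Tle-Foxa regions (purple, 0.19) and of bare stable regions (grey, −0.05).

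The folds were also described by level of stage 8 binding. In the lowest 3rd of the stage 8 list, 555 stable Foxa regions had a median fold of 18.0 at stage 9 and 12.9 at stage 8, and 1929 bare stable regions had 14.2 and 12.9. In the middle 3rd, 553 stable Foxa regions had 22.0 at stage 9 and 16.9 at stage 8, and 2011 bare stable regions had 15.1 and 17.02. In the highest 3rd, 301 stable Foxa regions had 27.2 and 23.8, and 1152 bare stable regions had 19.5 and 24.3. In each 3rd, stable Foxa regions thus had a higher median stage 9 fold than bare stable regions of like stage 8 fold. Against stable Tle-Foxa regions the order was not steady, with median log2 ratios of 0.49, 0.39 and 0.14 at stable Foxa regions and 0.63, 0.38 and 0.03 at stable Tle-Foxa regions from the lowest to the highest 3rd. The highest 3rd held 1674 of 3046 stable Tle-Foxa regions and 301 of 1409 stable Foxa regions. The part of this in the lower overall median of stable Tle-Foxa regions was not tested. By scaffold, the median log2 ratio of stable Foxa regions ran from 0.23 to 0.48 over the 10 longest scaffolds. It was above that of bare stable regions, −0.09 to 0.09, on 10 of 10. Both splits were added after the data were examined. The rule used these lists, so the values are a description and carry no test.

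Foxa itself was of middling strength at these regions. The authors' Foxa score had a median of 13.5 at stable Foxa regions (interquartile range 7.79 to 26.4), 16.6 at stable Tle-Foxa regions (8.82 to 37.7) and 20.6 at late Foxa regions (10.54 to 43.2). The whole Foxa list had a median of 10.8. In the upper 10% of the Foxa list were 12.6% of stable Foxa regions, 21.1% of stable Tle-Foxa regions and 25.1% of late Foxa regions. The strongest Foxa peaks were thus less frequent at stable Foxa regions than in the other 2 classes with Foxa.

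The Foxa score went with stage 9 Foxh1 and not with stage 8 Foxh1. Across the 1409 stable Foxa regions, Spearman's rho between the Foxa and stage 9 Foxh1 scores was 0.22, and between the Foxa and stage 8 Foxh1 scores −0.02. The rho of the 2 Foxh1 stages was 0.45. At stable Tle-Foxa regions these values were 0.26, −0.03 and 0.54 in the same order, so the pattern was not particular to stable Foxa regions. These are descriptions across regions of single lists, which share local chromatin and peak width. Region width itself had a rho of 0.39 with the Foxa score. From the lowest to the highest 3rd of stable Foxa regions by Foxa score, the median stage 9 Foxh1 score was 734, 847 and 994, and the median stage 8 Foxh1 score 510, 498 and 500. The median log2 ratio of the stages was 0.23, 0.35 and 0.50. In bare stable regions it was −0.05. The rule used these lists, so the ratios by Foxa score are a description.

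Within a region the 3 peaks lay close together. The stage 8 and stage 9 Foxh1 summits were a median of 10 bases apart, and 84.7% of stable Foxa regions had them within 25 bases. They were within 50 bases at 1355 of 1409 stable Foxa regions (96.2%, 95.03 to 97.1%), 2716 of 3046 stable Tle-Foxa regions (89.2%) and 5037 of 5092 bare stable regions (98.9%). Over all regions with both stages the share was 94.7%. Stable Foxa regions were above stable Tle-Foxa regions by 7.00 percentage points (two-sided Fisher's exact test with Benjamini-Hochberg adjustment over 19 tests between classes, adjusted p = 1.39e-15) and differed from bare stable regions by −2.75 points (adjusted p = 4.98e-10). The median widths of the regions were 391 bases for stable Foxa, 566 for stable Tle-Foxa and 275 for bare stable regions, in the reverse order of these shares. The rule required these peaks to join in 1 region, so their closeness is in part set by the rule. The p-values of centre distances are thus a description of these lists. The part of width in the result was not tested. In the lowest of 3 classes by stage 9 score, the difference from bare stable regions was −1.49 points (Fisher's exact adjusted p = 0.305).

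The middle of the Foxa peak was a median of 41 bases from the stage 9 Foxh1 summit at stable Foxa regions, 46 at stable Tle-Foxa and 41 at late Foxa regions. A middle is less exact than a summit, which the Foxa list does not give. The rule also required the Foxa and Foxh1 peaks to join in 1 region, so the p-values here are a description too. Within 50 bases lay 805 of 1409 stable Foxa regions (57.1%, 54.5 to 59.7%), 1612 of 3046 stable Tle-Foxa regions (52.9%) and 2495 of 4302 late Foxa regions (58.0%), and 55.5% over all regions with both peaks. The difference from stable Tle-Foxa regions was 4.21 points (Fisher's exact adjusted p = 0.0129). It was 3.31 points (Fisher's exact adjusted p = 0.0629) where each region held 1 peak per list, and 1.39 points (p = 0.803) in the lowest class by stage 9 score. From late Foxa regions the difference was −0.86 points, with a 95% interval of −3.85 to 2.10 (Fisher's exact adjusted p = 0.576). In the 3 classes by stage 9 score this difference was −7.94, −6.69 and 2.98 points from the lowest to the highest (Fisher's exact adjusted p = 0.163, 0.0472 and 0.229). The stage 9 summit lay inside the Foxa peak at 88.1% of stable Foxa regions.

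**Figure D4:**
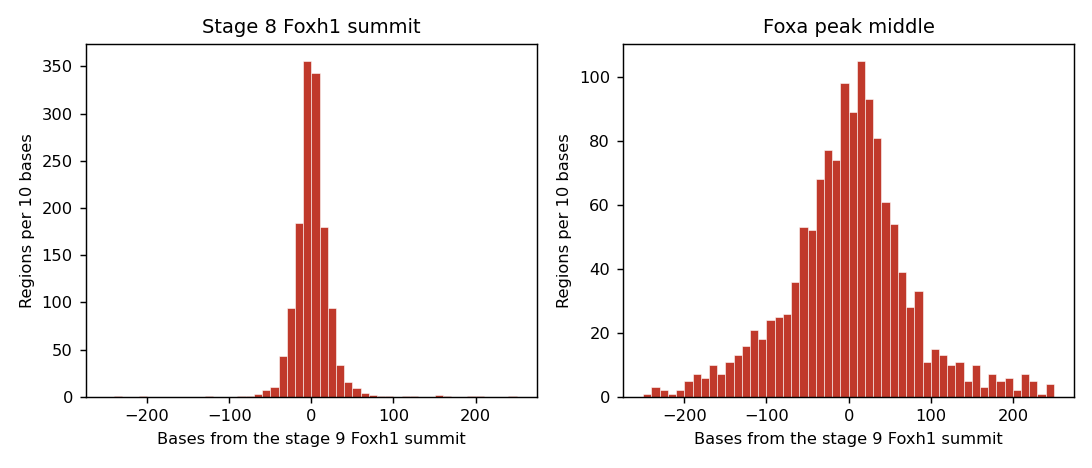
Number of stable Foxa regions per 10 bases by the signed distance, in bases along the scaffold, from the stage 9 Foxh1 summit to the stage 8 Foxh1 summit (left) and to the middle of the Foxa peak (right). 15 regions lie outside the left panel and 55 outside the right one. The stage 8 summits sit within 50 bases in 96.2% of regions and the Foxa middles in 57.1%.

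The surroundings of the regions were then compared, by the share with another peak of a list, in another region, within 10 kb. This measure was not used by the rule. It was tested only for lists that both classes carried or both lacked, with Fisher's exact test over regions. Regions are not replicates and neighbouring regions share peaks, so the p-values describe these lists and not embryos.

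A neighbouring peak of each tested list was more frequent at stable Foxa regions than at bare stable regions, and several of these shares of stable Foxa regions were near or below the background of all regions with stage 9 Foxh1. Another stage 9 Foxh1 peak was near 847 stable Foxa regions (60.1%, 57.5 to 62.6%) and 46.2% of bare stable regions (Fisher's exact adjusted p = 3.60e-19), where 56.4% of all regions with stage 9 Foxh1 had one. Another stage 8 Foxh1 peak was near 725 stable Foxa regions (51.5%) and 43.9% of bare stable regions (Fisher's exact adjusted p = 1.08e-06), and 51.0% of all regions with stage 9 Foxh1. The stage 8 share of stable Foxa regions was thus at that background, and it was bare stable regions that were below it. A Tle peak was near 722 stable Foxa regions (51.2%) and 45.4% of bare stable regions (Fisher's exact adjusted p = 0.000212), with 54.7% over all. Within 50 kb the Tle difference was 0.45 points (Fisher's exact adjusted p = 0.798). By stage 8 score, a split chosen with the data in view, it was 4.71, 4.93 and 8.09 points from the lowest to the highest class (Fisher's exact adjusted p = 0.167, 0.0967 and 0.00650). The stage 8 Foxh1 difference was 4.57, 6.37 and 12.4 points in the same order (Fisher's exact adjusted p = 0.167, 0.0338 and 2.62e-05). Tle was thus absent from these regions by the rule but listed within 10 kb of a share somewhat below the background.

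Gastrula Foxh1, listed at a stage when Nodal signalling is active, was near 118 stable Foxa regions (8.37%, 7.04 to 9.94%) and 164 bare stable regions (3.22%, 2.77 to 3.74%), a difference of 5.15 points (Fisher's exact adjusted p = 3.09e-14). Over all regions with stage 9 Foxh1 the share was 6.63%. The difference was 3.41, 5.37 and 4.15 points from the lowest to the highest class by stage 9 score, and past the threshold of 0.05 in each. Smad2/3, the Nodal effectors, were near 46 stable Foxa regions (3.26%, 2.46 to 4.33%) and 50 bare stable regions (0.98%, 0.75 to 1.29%), against 2.62% over all (Fisher's exact adjusted p = 2.80e-08). The interval of stable Foxa regions contains that background, and it was bare stable regions that were below it. Regions that carry gastrula Foxh1, Smad2/3 or Tle are part of that background and not of these classes. In the lowest class by stage 9 score the Smad2/3 difference was 1.82 points (Fisher's exact adjusted p = 0.0901). On each of the 10 longest scaffolds the share near gastrula Foxh1 was higher for stable Foxa than for bare stable regions, and for Smad2/3 it was higher on 9.

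In the same lowest class the differences for stage 9 Foxh1, stage 8 Foxh1 and Tle were 7.99, 7.85 and 3.32 points (Fisher's exact adjusted p = 0.125, 0.125 and 0.675).

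Another Foxa peak was near 989 stable Foxa regions (70.2%, 67.8 to 72.5%) and 45.9% of bare stable regions, with 57.9% over all regions with stage 9 Foxh1. The rule separates these 2 classes by the Foxa list, so this difference carries no test.

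Against stable Tle-Foxa regions, the surroundings differed past the threshold for stage 8 and stage 9 Foxh1, and not for Foxa, gastrula Foxh1 or Smad2/3. Stage 8 Foxh1 was near 51.5% of stable Foxa regions and 65.9% of stable Tle-Foxa regions, a difference of −14.4 points (Fisher's exact adjusted p = 6.96e-19). Stage 9 Foxh1 was near 60.1% and 71.0% of the same classes, a difference of −10.9 points (Fisher's exact adjusted p = 2.78e-12). Over all regions with stage 9 Foxh1 these shares were 51.0% and 56.4%, so stable Foxa regions were not below that background. The stage 8 and stage 9 shares were lower for stable Foxa than for stable Tle-Foxa regions on 10 of the 10 longest scaffolds. Stable Tle-Foxa regions also ranked higher at stage 8, so 3 classes by stage 8 score were compared, a split chosen with the data in view. For stage 8 Foxh1 the lowest, middle and highest class gave −11.3, −11.2 and −7.68 points (Fisher's exact adjusted p = 5.24e-05, 0.000389 and 0.0791). For stage 9 Foxh1 they gave −11.3, −8.11 and −5.28 points (Fisher's exact adjusted p = 4.76e-05, 0.00687 and 0.236). Both differences were thus past the threshold except in the highest class, which held 175 stable Foxa regions. For Foxa the difference was −2.49 points, with an interval of −5.39 to 0.34 (Fisher's exact adjusted p = 0.108), and within 5 kb it was −4.34 points (p = 0.0112). In the highest class by stage 9 score it was −6.05 points (Fisher's exact adjusted p = 0.0407). For gastrula Foxh1 it was −1.34 points (−3.08 to 0.51, Fisher's exact adjusted p = 0.196) and for Smad2/3 −0.48 points (−1.57 to 0.75, p = 0.546).

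Late Foxa regions, which gained their Foxh1 listing at stage 9, had more Foxa and gastrula Foxh1 around them than stable Foxa regions. Another Foxa peak was near 70.2% of stable Foxa and 77.5% of late Foxa regions, a difference of −7.35 points (Fisher's exact adjusted p = 9.71e-08). Gastrula Foxh1 was near 8.37% of stable Foxa and 11.3% of late Foxa regions, a difference of −2.97 points (Fisher's exact adjusted p = 0.00264). Stage 9 Foxh1 was near 60.1% and 65.0% of these classes, a difference of −4.86 points (Fisher's exact adjusted p = 0.00194). Late Foxa regions had stronger Foxa peaks, and within 3 classes by Foxa score, also chosen with the data in view, the Foxa difference was −0.49, −4.97 and −8.05 points from the lowest to the highest class (Fisher's exact adjusted p = 0.838, 0.0615 and 0.000714). Within 50 kb the Foxa difference was −1.32 points (Fisher's exact adjusted p = 0.0896). In the 3 classes by stage 9 score it was −14.9, −7.81 and −10.9 points from the lowest to the highest, and past the threshold in each (Fisher's exact adjusted p = 0.00170, 0.00938 and 1.22e-07). The gastrula Foxh1 and stage 9 Foxh1 differences were not past the threshold in any of the 3 classes by Foxa score. By stage 9 score, the gastrula Foxh1 difference was −4.48, −0.84 and −6.51 points in the same order (Fisher's exact adjusted p = 0.179, 0.802 and 4.34e-05). The stage 9 Foxh1 difference was −11.2, −5.38 and −10.2 points (Fisher's exact adjusted p = 0.0415, 0.102 and 1.38e-05). For Tle the difference was 0.99 points (−2.02 to 3.99, Fisher's exact adjusted p = 0.569). For Smad2/3 it was −1.22 points (−2.27 to −0.01), with a Fisher's exact p of 0.0465 before adjustment and 0.0631 after it.

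**Figure D5:**
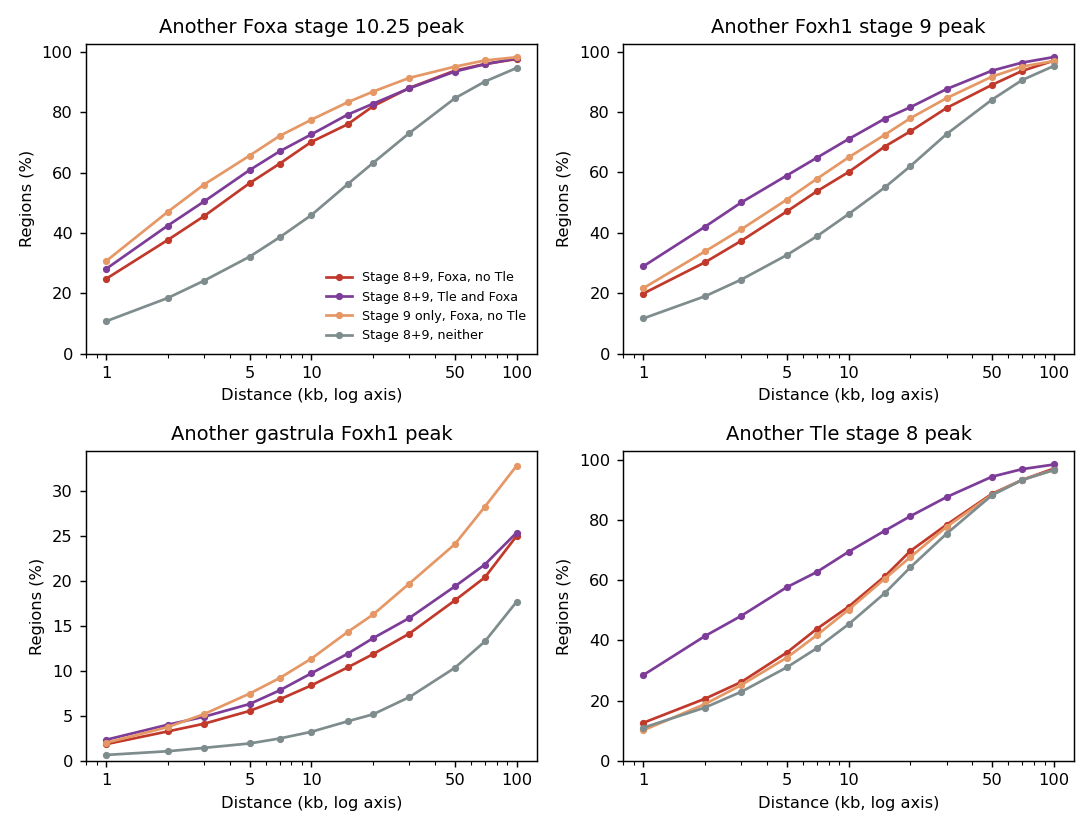
Share of regions (%) with another peak of the named list, in another region, within the distance on the horizontal log axis (kb), for stable Foxa (red), stable Tle-Foxa (purple), late Foxa (orange) and bare stable regions (grey). At 10 kb, gastrula Foxh1 was near 8.37% of stable Foxa and 3.22% of bare stable regions, and Tle near 51.2% and 45.4%.

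The strongest single regions show how these values combine. The highest stage 9 Foxh1 score among stable Foxa regions, 1797, was held by 3 of them, where the whole list reached 2012. The first, on scaffold 1 from 164777899 to 164778428, had a fold of 43.0 at stage 9 and 18.3 at stage 8 and a Foxa score of 18.7. The second, on scaffold 10 from 25585838 to 25586340, had 43.0 at stage 9 and 21.8 at stage 8 with a Foxa score of 6.92. The stage 9 fold was 2.35 and 1.97 times the stage 8 fold, while the Foxa scores stood on either side of the list's median of 10.8. The third, on scaffold 7 from 15914322 to 15914636, had 43.0 at stage 9 and 36.4 at stage 8 with a Foxa score of 10.4. The region on scaffold 4 from 109654930 to 109655425 followed with 44.2 at stage 9, 36.3 at stage 8 and a Foxa score of 8.82. These last 2 were already strong at stage 8. The fifth, on scaffold 4 from 87982383 to 87983054, had 40.7 at stage 9, 15.7 at stage 8 and a Foxa score of 77.0, with another Foxa peak 0.241 kb away.

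The highest stage 8 score of a stable Foxa region was 1645, on scaffold 8 from 39790301 to 39790638, with a fold of 38.1 at stage 9 and 34.0 at stage 8. The next, on scaffold 2 from 36464523 to 36464956, had 39.4 at stage 9 and 33.0 at stage 8. It lay 2.07 kb from gastrula Foxh1, 2.03 kb from Smad2/3 and 2.04 kb from Tle. The third, on scaffold 1 from 184413171 to 184413553, had 41.3 and 36.0. The region on scaffold 5 from 100158976 to 100159641 had 20.9 at stage 9 and 35.2 at stage 8, and the one on scaffold 2 from 5235510 to 5235983 had 28.2 and 38.8. These 2 of the 5 were lower at stage 9, and their Foxa scores were 6.01 and 63.1.

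The 5 highest Foxa scores among stable Foxa regions stood at regions with stage 8 Foxh1 ranks of 18.5 to 45.7. The whole Foxa list reached a score of 238. The median rank of all stable Foxa regions was 41.9, and across them the Foxa and stage 8 scores had a rho of −0.02. The highest of these 5, 183, was on scaffold 6 from 121302600 to 121303453, where the Foxh1 fold was 33.1 at stage 9 and 12.5 at stage 8. The next, 168, was on scaffold 1 from 143353192 to 143353968, with 39.8 at stage 9 and 15.0 at stage 8. That region had gastrula Foxh1, Smad2/3 and Tle peaks 0.444, 0.474 and 0.469 kb away, just outside the rule. The others were on scaffold 6 from 15997508 to 15997905 (Foxa score 157, Foxh1 fold 13.9 at stage 9 and 18.0 at stage 8), on scaffold 1 from 126572112 to 126572655 (157, 11.3 and 13.0) and on scaffold 7 from 21511966 to 21512465 (147, 17.8 and 10.47). The stage 9 fold was above the stage 8 fold in 3 of these 5 regions, against 72.5% of all stable Foxa regions, so the 5 do not stand out in this. The widest region had 1806 bases, on scaffold 1 from 55057939 to 55059744, with the Foxa middle 826 bases from the stage 9 summit. The narrowest had 208 bases, on scaffold 6 from 89258637 to 89258844.

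Stable Foxa regions lay on 61 scaffolds. The 10 longest scaffolds held 1349 of them, at 0.941 to 1.28 per Mb, and they made up 4.34 to 5.55% of the stage 9 Foxh1 regions of these scaffolds. Another stable Foxa region lay within 10 kb of 115 (8.16%, 6.84 to 9.71%) and within 50 kb of 270 (19.2%). No such share was taken for another class, so these values show neither an even spread nor clustering. The 3 windows of 200 kb with most stable Foxa regions held 5 each. In those of scaffold 8 (49468885 to 49668884) and scaffold 9 (83849592 to 84049591), the stage 9 fold was above the stage 8 fold in 5 of 5. The share over all stable Foxa regions was 72.5%, so 5 of 5 does not set these windows apart. These windows held 11 and 10 Foxa peaks and no gastrula Foxh1 peak, of which the whole list has only 1290. The window on scaffold 4 from 22511306 to 22711305 was denser, with 53 Foxa, 36 stage 9 Foxh1, 26 stage 8 Foxh1, 21 Tle and 3 gastrula Foxh1 peaks. There the stage 9 fold was above the stage 8 fold in 3 of 5. Gene names and sequences of the regions were not used here, since the sources used here name no genome build.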

How the data were processed

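ChIP-seq peak lists were analysed for 4 of the 11 samples (the stage 8 Tle, stage 8 Foxh1, stage 9 Foxh1 and stage 10.25 Foxa samples), with 2 lists of the whole series (gastrula Foxh1 and Smad2/3). The other 7 samples were not analysed here. Tools named in the submitters' processing notes are HOMER 4.7, SAMtools, MACS2 2.0.10 and Bowtie 1.0.0. The sources used here do not give what each did, the genome build or the calling thresholds. The Foxh1 and Smad2/3 lists hold the authors' score, fold enrichment, −log10 p and summit of each peak in the layout of MACS2 narrow peaks. Of these, the deposited −log10 p was not used for any result. The deposited Tle and Foxa lists hold a score alone, and the peak middle served as centre. Scores and folds describe or rank peaks within a list. The exception is the ratio of stage 9 to stage 8 folds, compared between classes of regions.

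A region is represented by its highest-scoring peak of each list. Distances run between the edges of a region and of a peak. Coordinates count from 1. Of 19 two-sided Fisher's exact tests between classes (15 on surroundings within 10 kb, 4 on centres within 50 bases), p-values were adjusted together by Benjamini-Hochberg. Intervals of shares are Wilson 95% intervals and those of differences combine them (Newcombe). Both cover the counting of regions only. Named regions are the 5 highest by each carried list, the widest, the narrowest and the 3 windows of 200 kb with most regions. The set of regions, the classes and the tests were chosen with earlier results of these data known. The distance search and the tests were tested on simulated data. For the tests the simulated regions were independent, so the case of neighbouring regions that share peaks was not covered. Alternatives varied the overlap, distances, scaffolds and peak strength. Figures were drawn with matplotlib 3.10.9, and values computed with scipy 1.17.1, pandas 2.3.3 and numpy 2.4.6 under Python 3.11.15. Splits by stage 8 or Foxa score and by scaffold were added after the data were examined.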

Additional observations from a re-analysis of the deposited data

How the results depend on the processing

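The number of stable Foxa regions was 1391 with an overlap of at least 50% of the shorter peak, 1383 with centres within 100 bases, 1593 with gastrula Foxh1 allowed and 1416 with Smad2/3 allowed. It was 316 with the upper 50% of the 3 carried lists by score and 4455 with Tle allowed. The surroundings passed the threshold in 10 of 15 tests, in 11 within 5 kb, 9 within 50 kb and 10 on the 10 longest scaffolds. By stage 9 score it was 5 in the lowest class, 8 in the middle and 11 in the highest. In 3 classes by stage 8 or Foxa score it was 5, 6 and 6. The centre distances passed in 3 of 4 tests and in 1, 4 and 3 by stage 9 score. The classes by score hold fewer regions. Centre distances are in part set by the rule, so their count is a description.

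The Foxa difference from late Foxa regions was −1.32 points within 50 kb (Fisher's exact adjusted p = 0.0896), −0.49 and −4.97 in the lowest and middle class by Foxa score. The stage 8 Foxh1 difference from stable Tle-Foxa regions was −7.68 in the highest class by stage 8 score. It was −11.3 and −11.2 in the lowest and middle class. Signs turned only for differences not past the threshold in the main test. Against stable Tle-Foxa regions, Foxa was 0.29 within 50 kb and 0.63 in the lowest class by stage 9 score, Smad2/3 0.097 in that class and 0.031 in the highest by stage 8 score, and gastrula Foxh1 0.64 in the highest by stage 9 score. Against late Foxa regions, Tle was −0.70 and −1.59 in the lowest and highest class by stage 9 score and −1.37 in the highest by Foxa score, and the Foxa centre distance was 0.28 at 25 bases and 2.98 in the highest class by stage 9 score. The cause was not tested. No paired analysis was possible because each factor and stage has 1 list. Motif and gene start comparisons were not run, for want of a genome of the build.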

Other observations

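Some regions of each class stood alone, and the share of stable Foxa regions lay between those of the other classes. No other peak of any of the 6 lists lay within 10 kb of 198 of 1409 stable Foxa regions (14.1%, 12.3 to 16.0%), 254 of 3046 stable Tle-Foxa regions (8.34%), 513 of 4302 late Foxa regions (11.9%) and 1295 of 5092 bare stable regions (25.4%). Gastrula Foxh1 and Smad2/3 were both within 10 kb of 37 stable Foxa regions (2.63%) and 30 bare stable regions (0.59%). They were both near 90 stable Tle-Foxa regions (2.95%) and 133 late Foxa regions (3.09%), so this was not particular to stable Foxa regions. These shares were not tested. Neither share was taken over a wider background of regions, so neither is shown to be a trait of stable Foxa regions.

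Stable Foxa regions were also described by the direction of Foxh1 between stages. The 504 with a stage 9 fold of at least 1.5 times the stage 8 fold had median folds of 28.1 at stage 9 and 13.9 at stage 8, and a median Foxa score of 16.97. The 83 with the reverse had 11.5 at stage 9 and 20.4 at stage 8, and a median Foxa score of 9.98. The 822 between these bounds had a median Foxa score of 11.8. Another Foxa peak was near 71.6% of the 504, 70.4% of the 822 and 59.0% of the 83. A Tle peak was near 50.2%, 51.5% and 55.4% in the same order. Over all regions with stage 9 Foxh1 the shares were 57.9% for Foxa and 54.7% for Tle. The groups were defined by the measured folds, so these values are a description.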
